A study of Homo sapiens with 22 samples.

Results

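The interaction of GSK3 inhibition with β-catenin depletion was examined in BRCA2-deficient H1299, an established human line from a non-small cell lung carcinoma. For every gene, the response to the GSK3 inhibitor LY2090314 (GSK3i) in cells transfected with siRNA against β-catenin (siβ-catenin) was compared with its response in cells transfected with control siRNA. The libraries were chosen by their labels and were 12 of the 22 in the series. In all of them the cells expressed an shRNA that depletes BRCA2 under control of doxycycline (DOX), given at 2 µg/mL for 3 days. A day after DOX was added the cells were transfected with the AllStars control siRNA or with siβ-catenin, and on the next day 250 nM LY2090314 or vehicle was given for 24 h. The 4 groups of 3 libraries are called control siRNA, GSK3i, siβ-catenin and GSK3i with siβ-catenin. The libraries of a group are described as independent experiments. There was 1 cell line and 1 sequence of siβ-catenin. No library came from cells with DOX but no shRNA, so effects of DOX and of BRCA2 depletion cannot be told apart.

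GSK3 is a kinase of the destruction complex, in which the scaffolds AXIN1 and APC hold β-catenin for phosphorylation and then degradation. When WNT ligands bind Frizzled and LRP receptors, or when GSK3 is inhibited, β-catenin escapes the complex, enters the nucleus and activates transcription together with the TCF/LEF factors. Among its best known targets are inhibitors of the pathway itself, such as AXIN2, which make a negative feedback loop. GSK3 also phosphorylates many proteins outside this pathway, so a response to its inhibitor may or may not pass through β-catenin. The interaction compares the response of each gene with and without the depletion, and a gene with no response under control siRNA can have one too. The depletion was partial at the RNA level, as the CTNNB1 counts below show, and these libraries do not measure protein. Whether a response that remained needed the β-catenin left was not tested.

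The 12 libraries held between 18.9 and 29.3 M counts each (median 24.6 M). Replicates differed by more than counting error (chi-square per gene 13.6 to 58.5). Levels of CTNNB1, which encodes β-catenin, ran from 5211 to 8681 normalised counts (counts divided by size factors over all 22 libraries) in the 6 libraries with control siRNA and from 979.5 to 2220 in the 6 with siβ-catenin. The GSK3i-repressed genes YPEL2, PDCD4 and ABTB1 were low in all 6 libraries with GSK3i and high in the other 6, as the labels say. The epithelial and mesenchymal markers KRT8, KRT18 and VIM were all abundant, EPCAM was between 9.68 and 23.2, and of the alveolar genes SFTPA1, SFTPB and SFTPC stayed at or below 1.58 while NKX2-1 reached 28.9 to 114. PTPRC, the leukocyte marker, did not exceed 1.65.

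The size of the interaction is given as a log2 difference ± SE from DESeq2, the response with siβ-catenin minus the response with control siRNA. A negative value means that the gene rose less, or fell more, when β-catenin was depleted. Calls required both an adjusted p (Benjamini-Hochberg) under 0.05 and a difference beyond 0.5 in size. The adjustment covered the genes left by the filter that DESeq2 applies to low means, and the 3516 of 18117 genes without an adjusted p in the interaction count as not called. Values in single libraries are normalised counts over the 12 libraries, in the order of replicates 1, 2 and 3, and positions of genes are on GRCh37.

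Sequence before the transcription start was available from RefSeq for 53 of the 61 genes called with a negative interaction and 16 of the 27 called with a positive one. Each window was 300 bases, 250 before and 50 after the start, on GRCh38.p14. It was searched for the TCF/LEF core letters CTTTGAA and CTTTGAT and for their reverse complements TTCAAAG and ATCAAAG, none of which overlapped another in the windows shown. A match was present in 7 of the 53 windows (13.2%) and 1 of the 16 (6.25%), against 4.13% of the 12047 genes tested that had a window and 6.86% of all 35116 windows. SP5 was the only called gene with more than 1 match, and had 3, at positions -148, -109 and -84 from the start. Its 250 bases before the start (chr2:170715087-170715336, plus strand) are shown because the gene rose with GSK3i under control siRNA and fell with it under siβ-catenin, and the other windows because they hold the remaining matches among the called genes. Capitals mark the matches.
SP5: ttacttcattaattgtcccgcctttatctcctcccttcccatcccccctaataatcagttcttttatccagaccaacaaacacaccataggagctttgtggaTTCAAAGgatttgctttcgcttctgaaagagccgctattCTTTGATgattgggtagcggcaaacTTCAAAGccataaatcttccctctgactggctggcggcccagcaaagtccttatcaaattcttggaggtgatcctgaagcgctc
DACT1 (chr14:58633811-58633893, plus strand, match at -214): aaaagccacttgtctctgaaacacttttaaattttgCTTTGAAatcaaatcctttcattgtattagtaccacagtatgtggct
EDN1 (chr6:12287769-12287845, plus strand, match at -220): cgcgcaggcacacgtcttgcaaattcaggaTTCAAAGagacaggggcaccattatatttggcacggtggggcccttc
NR2F1 (chr5:93583038-93583124, plus strand, match at -144): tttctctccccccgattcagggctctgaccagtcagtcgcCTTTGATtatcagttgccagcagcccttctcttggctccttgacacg
FAS (chr10:88990637-88990723, plus strand, match at -121): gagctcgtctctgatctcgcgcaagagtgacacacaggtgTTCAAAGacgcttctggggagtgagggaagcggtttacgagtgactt
CDHR3 (chr7:105963089-105963175, plus strand, match at -135): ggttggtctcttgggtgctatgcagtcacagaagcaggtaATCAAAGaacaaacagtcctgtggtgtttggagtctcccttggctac
DIO2 (chr14:80211602-80211688, minus strand, match at -144): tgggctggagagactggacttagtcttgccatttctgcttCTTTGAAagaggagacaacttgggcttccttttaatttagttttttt
The match of SH3RF2 spanned the start itself and is not shown. The windows of LEF1 and TCF7 had no match, which says only that these letters were not in those 300 bases. DIO2 was the 1 gene with a positive interaction that had a match.

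Of 18117 genes tested, 88 were called in the interaction. The GSK3i response was more negative with siβ-catenin in 61 genes (0.337% of those tested) and more positive in 27 (0.149%). In all, 994 genes passed 0.05 without adjustment. With the replicate number as a block, 335 genes were called, 218 with a negative interaction (1.2%) and 117 with a positive one (0.646%), and all 88 genes were among them with the same sign. edgeR's quasi-likelihood test called 11 genes, all negative and all among the 88. The median interaction over all genes was -0.003, and 80 of the 88 genes were protein-coding. When each library was left out in turn, 41 genes were called every time, 31 negative and 10 positive. The total lay between 47 and 110 and fell by more than 1.5 times without GSK3i replicate 2 (47 genes), siβ-catenin replicate 1 (52), GSK3i replicate 3 (54) or control siRNA replicate 2 (56).

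The 61 genes with a negative interaction were for the most part genes that GSK3i raised. With control siRNA, 52 of them rose (12.3% of all genes tested did), none fell (14.7%) and 9 were not called. With siβ-catenin, 12 rose (8.09% of all genes), 11 fell (11.3%) and 38 were not called. Their median response was 1.19 with control siRNA and -0.06 with siβ-catenin. Under GSK3i, siβ-catenin itself changed 49 of them (6.2% of all genes), and in 58 the 3 GSK3i libraries did not overlap with the 3 given both (23% of all genes). Without GSK3i it changed 7 (2.05%), and in 25 the groups without GSK3i did not overlap, beside 3443 of all 18117 genes. The 27 genes with a positive interaction were mostly genes that GSK3i lowered: 19 fell with control siRNA and 7 with siβ-catenin, and the median response was -1.18 and -0.09. The depletion itself changed 19 of the 27 under GSK3i and 8 without it. In 24 and 11 of them the siRNA groups did not overlap under GSK3i and without it. These counts come from the libraries that called the genes and describe them.

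**Figure D1:**
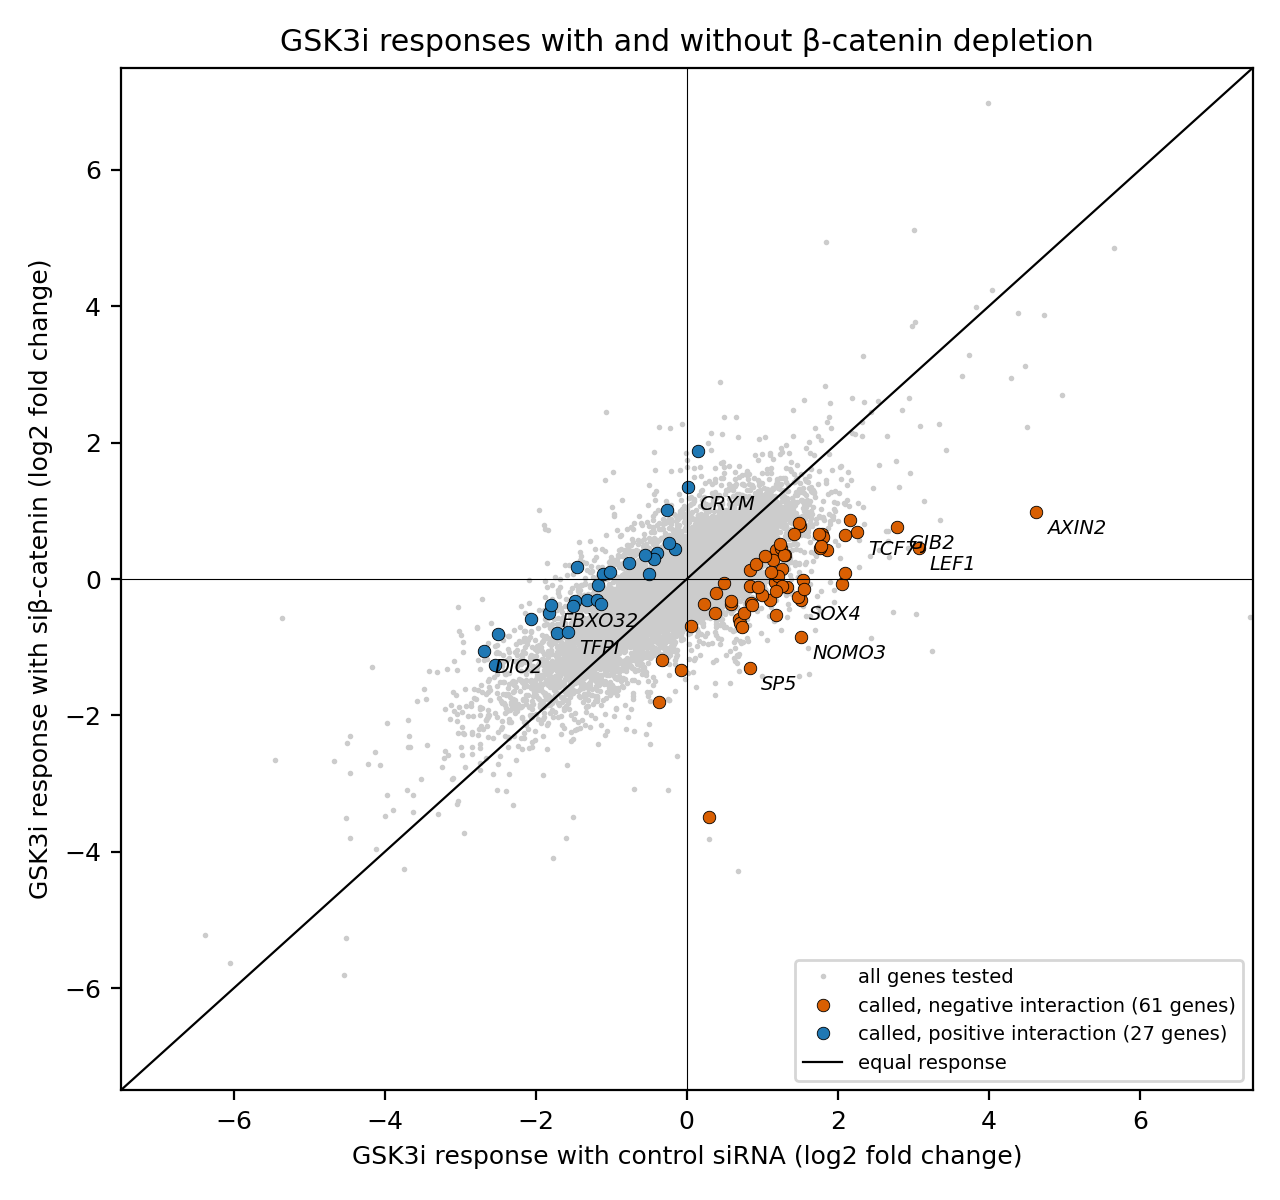
GSK3i response of each gene with control siRNA (horizontal axis) and with siβ-catenin (vertical axis), both as log2 fold changes from 3 libraries per group. The line marks equal responses: the 61 genes with a negative interaction lie below it, most of them to the right, with AXIN2 farthest out at 4.63 and 0.98, and the 27 with a positive interaction lie above it.

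Among genes of the WNT pathway, the calls came from TCF/LEF factors, feedback inhibitors and other targets, and are given here in the order of the pathway. DESeq2 called none of 12 WNT ligands, 16 receptors and coreceptors or 14 genes of the destruction complex and its ubiquitin ligases, and nor did edgeR. Below an unadjusted p of 0.05 were 2, 0 and 2 of them, beside 994 of all 18117 genes. With the replicate block, the ligand WNT7B had a positive interaction of 1.63 (adjusted p = 0.00156, against 0.193 without the block) and the scaffold AXIN1 a negative one of -0.58 (0.0189 against 0.137), both named here because they were so few. CTNNB1 had 6635, 9038 and 8242 normalised counts with control siRNA, 5573, 6368 and 6188 with GSK3i, 2322, 1966 and 1198 with siβ-catenin and 1934, 1724 and 1026 with both. The depletion did not differ detectably with and without GSK3i (interaction 0.17 ± 0.37, 95% interval -0.55 to 0.89). The interactions of BRCA2 (-0.00 ± 0.51), GSK3A (-0.04 ± 0.23) and GSK3B (0.04 ± 0.28) were not called either.

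AXIN2 (chromosome 17, 63524681 to 63557766), the scaffold that serves as a feedback inhibitor of the pathway, had the lowest adjusted p. Its normalised counts were 62.5, 66.6 and 66.7 with control siRNA and 1318, 1840.4 and 1676 with GSK3i, a 24.7-fold increase. With siβ-catenin they were 99.5, 102 and 84.9, and with both 241, 202 and 123, a 1.97-fold increase. The GSK3i libraries thus stood far above the other 9, and no 2 of the 4 groups overlapped. The interaction was -3.65 ± 0.34 (adjusted p = 2.51e-22), which makes the response 12.5-fold smaller, and it was -3.11, -3.79 and -4.10 within replicate numbers 1, 2 and 3 (log2 of normalised count + 0.5). Some response to GSK3i remained after the depletion, 0.98 ± 0.24 (adjusted p = 0.000504).

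Of the other 13 feedback inhibitors tested, DACT1, a partner of Dishevelled that antagonises WNT signalling, was called (-1.35 ± 0.31, adjusted p = 0.0057). It rose 2.26-fold with GSK3i, from 382, 356 and 225 to 799, 791 and 586, and went from 593, 557 and 527 to 548, 559.6 and 380.4 with siβ-catenin. The depletion thus raised its starting level (0.80 ± 0.22, adjusted p = 0.0191 by DESeq2), and under GSK3i the effect of the depletion, -0.55 ± 0.22, was not called (0.105). The call was lost without GSK3i replicate 2 (adjusted p = 0.0633) or siβ-catenin replicate 1 (0.0659). With the block the membrane ubiquitin ligase ZNRF3 (-0.87, adjusted p = 0.00141) and the secreted WNT-inactivating enzyme NOTUM (-1.93, 0.0436) were called as well, for 4 of 14. The median GSK3i response of the 14 was 0.45 with control siRNA and -0.31 with siβ-catenin, beside 0.03 and 0.014 over all genes.

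LEF1 and TCF7, transcription factors that bind β-catenin, were the 2 called among 15 TCF/LEF factors and cofactors. LEF1 (chromosome 4, 108968701 to 109090112) had 41.2, 48.6 and 46.3 normalised counts with control siRNA, 378, 376 and 390.4 with GSK3i, 54.6, 38.9 and 86.5 with siβ-catenin and 91.4, 50.7 and 104 with both. The GSK3i libraries stood above the other 9. The siβ-catenin libraries overlapped with those of control siRNA and with those given both, and the latter groups did not overlap with each other. The interaction was -2.62 ± 0.43 (adjusted p = 1.89e-06). TCF7 (chromosome 5, 133450372 to 133487556) rose from 401, 335 and 406 to 2061, 1729.6 and 1652 with control siRNA and from 408, 286 and 429 to 719.5, 539.5 and 548 with siβ-catenin, 4.76-fold and 1.61-fold, with an interaction of -1.57 ± 0.27 (adjusted p = 6.37e-06). The groups overlapped without GSK3i and did not overlap under it. TCF7L2 (-0.22 ± 0.19) and TCF7L1 (-0.00 ± 0.23), the other TCF factors measured in these cells, were not called. The cofactors BCL9 (-0.79, adjusted p = 0.000503) and TLE3 (-0.66, 0.00641) were called with the block.

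Among 30 other WNT target genes, SP5, SOX4, BMP4 and EDN1 were called, all with a negative interaction. With the block 6 were called, these 4 with MYC, which is described further on, and PLAUR, the urokinase receptor gene, whose interaction was positive (0.59, adjusted p = 0.0122, against 0.562 without the block). SOX4 (chromosome 6, 21593982 to 21598850), an HMG-box transcription factor, had 1046, 1111 and 1226 normalised counts with control siRNA, 2908, 3634 and 2836 with GSK3i, 996, 911 and 982 with siβ-catenin and 897, 743 and 757 with both. A 2.77-fold increase was followed by no detectable one after the depletion (-0.27 ± 0.14, adjusted p = 0.152), and the interaction was -1.74 ± 0.20 (adjusted p = 7.93e-15). SP5 (chromosome 2, 171571847 to 171574588), a zinc-finger transcription factor and WNT target whose promoter is shown above, had 151, 143 and 105 with control siRNA and 229, 237 and 246 with GSK3i. It had 223, 160.0 and 183 with siβ-catenin and 97.8, 62.3 and 70.4 with both. The direction of its response turned, from a 1.78-fold increase to a 2.46-fold decrease, with an interaction of -2.13 ± 0.31 (adjusted p = 2.04e-08).

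BMP4, a growth factor of the TGF-β superfamily, rose from 161, 132 and 126 to 221, 293 and 191 with control siRNA and went from 165, 158 and 124 to 109.5, 102 and 105 with siβ-catenin (-1.25 ± 0.30, adjusted p = 0.00828). EDN1, the precursor of endothelin-1, rose from 30.0, 23.7 and 55.9 to 180.2, 109 and 170.3 and went from 45.8, 17.7 and 56.9 to 39.3, 30.6 and 44.3 (-2.13 ± 0.58, adjusted p = 0.0441). The call for BMP4 was made in 7 of the 12 fits that left out 1 library (adjusted p at most 0.113) and that for EDN1 in 3 (at most 0.307). The target list was drawn up with results of these libraries known, and the study names LEF1, SOX4, TCF7 and AXIN2 from the same assay, so their direction is not independent evidence. The median interaction of the 30 targets was -0.25, and 21 of 30 had a negative value.

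**Figure D2:**
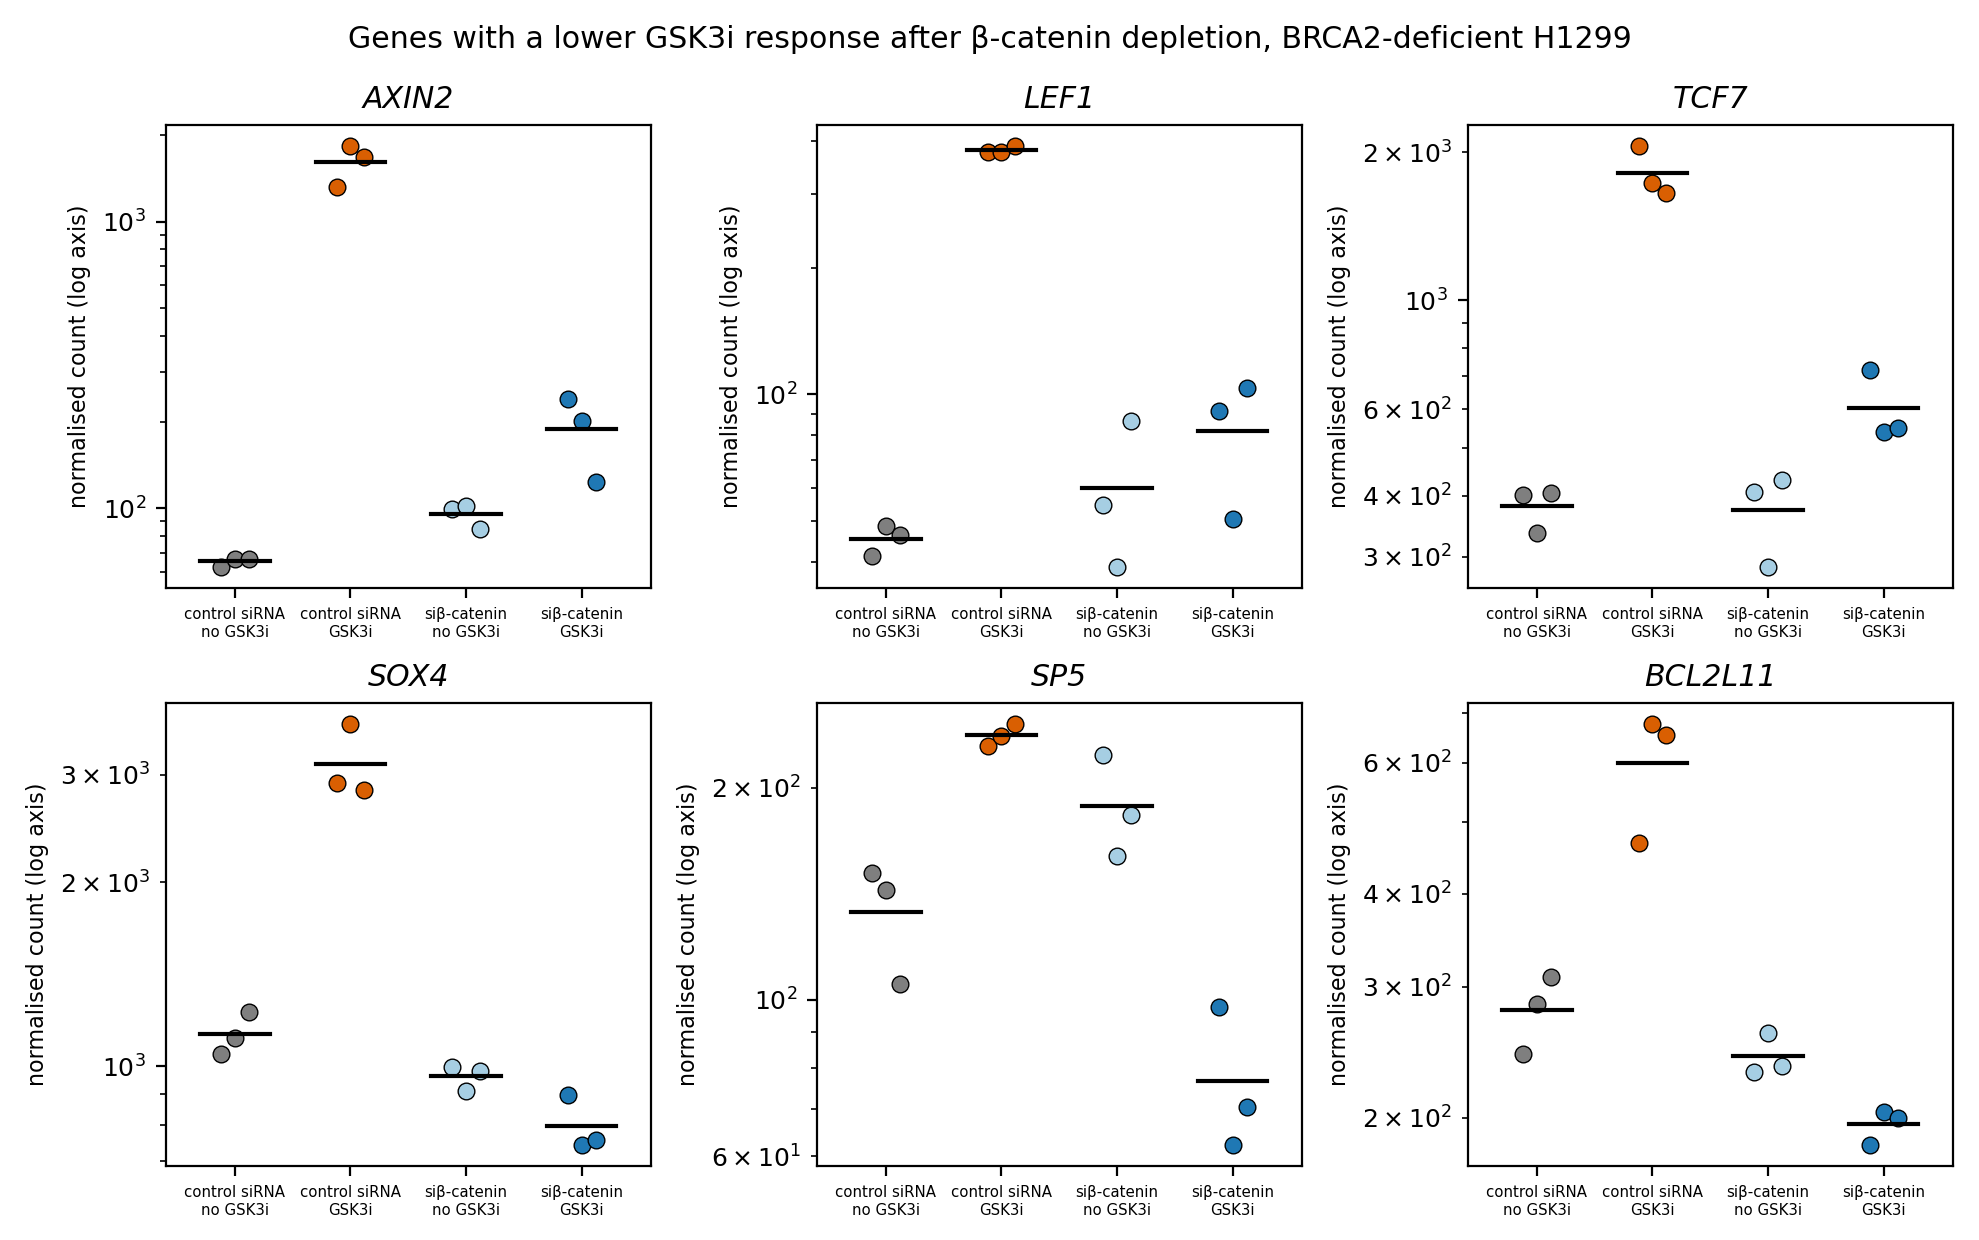
Normalised counts (log axis) of 6 genes with a negative interaction in each of the 12 libraries, by group, with the mean of 3 libraries as a bar. In each panel the 3 libraries with GSK3i and control siRNA are the highest, at up to 1840.4 for AXIN2, and those given both GSK3i and siβ-catenin are at or below 241 for that gene and at or below 97.8 for SP5.

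Outside the WNT lists, the negative interactions of lowest adjusted p among genes with a mean of at least 100 were of PALD1, RNF125 and NOMO3, the last pair of which are described further on with the genes whose response turned. PALD1 (paladin) had 385, 426 and 434 normalised counts with control siRNA, 866, 1023 and 986 with GSK3i, 485, 484 and 475 with siβ-catenin and 501, 536 and 451 with both. Its response was 1.21 ± 0.12 with control siRNA and 0.04 ± 0.12 with siβ-catenin, with an interaction of -1.17 ± 0.18 (adjusted p = 9.93e-08). NSMF, a synapto-nuclear signalling protein, likewise had no response called with siβ-catenin, 1.16 ± 0.14 against -0.04 ± 0.14 (-1.21 ± 0.20, adjusted p = 5.36e-06). SH3RF2, a RING-finger protein with SH3 domains, rose 3.62-fold with control siRNA and responded by 0.43 ± 0.17 with siβ-catenin, which was not called (-1.43 ± 0.24). FRMD5, a FERM-domain protein, rose with both siRNAs, 3.45-fold against 1.58-fold (-1.12 ± 0.19). GJB2, which encodes the gap junction protein connexin 26, was the only 1 of 16 adhesion and junction genes called: it rose from 32.5, 24.8 and 46.3 to 266, 231 and 218 with control siRNA and from 31.7, 20.3 and 37.9 to 54.2, 46.5 and 52.2 with siβ-catenin (-2.02 ± 0.39, adjusted p = 0.000143). These 5 genes were called in each of the 12 fits that left out 1 library.

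BCL2L11, which encodes the pro-apoptotic BH3-only protein BIM, had 244, 285 and 309 normalised counts with control siRNA and 468, 677 and 653 with GSK3i. With siβ-catenin it had 231, 259.8 and 235, and with both 184, 204 and 200.1. All 3 libraries with GSK3i and control siRNA lay above the other 9, and the 3 given both lay below every other library. A 2.15-fold increase thus stood against a change of -0.30 ± 0.18 (adjusted p = 0.217), and the interaction was -1.41 ± 0.25 (adjusted p = 1.71e-05, and 0.052 by edgeR's quasi-likelihood test).

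In 5 genes the GSK3i response was called in opposite directions under the siRNAs, up with control siRNA and down with siβ-catenin, and in none the other way round. They were SP5, RNF125, NOMO3, PLPP3 and TRIB2, of which the last pair are named because the count is small. RNF125, a ubiquitin ligase, rose from 214, 255 and 289 to 423, 454 and 383 and fell from 287, 287 and 261 to 184, 171 and 159.7, with an interaction of -1.43 ± 0.22 (adjusted p = 2.13e-07). PLPP3, a lipid phosphate phosphatase, had responses of 0.69 and -0.58, and TRIB2, a pseudokinase, of 0.71 and -0.64. NOMO3 (-2.36 ± 0.36) has near-identical copies in the genome, between which uniquely mapping reads may be split, and its value is uncertain.

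Genes with a positive interaction were mostly lowered by GSK3i, and less so with siβ-catenin. TFPI, an inhibitor of the coagulation cascade, fell from 1454, 1532 and 1619 normalised counts to 562, 496 and 486 with control siRNA and from 1068, 1024 and 960.1 to 612, 587 and 589.9 with siβ-catenin. The groups without GSK3i did not overlap, and the depletion lowered the starting level 1.51-fold, whereas the levels under GSK3i were 1.16-fold apart. The interaction was 0.81 ± 0.15 (adjusted p = 7.93e-05). DIO2, the deiodinase that activates thyroid hormone, had 251, 338 and 325 and 35.6, 50.3 and 54.6 with control siRNA, without and with GSK3i, and 272, 406 and 321 and 141, 164 and 175 with siβ-catenin. Here the starting levels overlapped and the difference arose under GSK3i, a 6.45-fold fall against a 2.08-fold fall, with an interaction of 1.64 ± 0.32 (adjusted p = 0.000127).

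ARL14, a small GTPase (1.28 ± 0.27), and the long non-coding RNA LINC00707 (1.16 ± 0.23) had lower starting levels with siβ-catenin, as TFPI had. The serotonin receptor gene HTR1D (1.32 ± 0.27) and FBXO32 resembled DIO2. FBXO32, the muscle ubiquitin ligase atrogin-1 and a known FOXO target, went from 820.0, 692 and 619.7 to 256, 210.5 and 146 with control siRNA and from 892, 708 and 571 to 660.0, 553 and 455 with siβ-catenin. Its 3.49-fold fall stood against -0.38 ± 0.23 (adjusted p = 0.238), with an interaction of 1.42 ± 0.33 (adjusted p = 0.00573). DMBT1, a secreted scavenger-receptor protein, fell with both siRNAs, by 2.50 and 0.81 on the log2 scale.

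CRYM, which encodes a thyroid hormone-binding crystallin, showed another pattern. Its counts were 128, 138 and 118 with control siRNA and 153, 131 and 106 with GSK3i, which overlapped, and 128, 150.2 and 202 with siβ-catenin. Only the libraries given both stood apart, at 380.5, 378 and 463, 2.54 times the level with siβ-catenin alone. The interaction was 1.32 ± 0.30 (adjusted p = 0.00347). ATOSB (0.72 ± 0.16) and RGS3, a regulator of G-protein signalling (0.91 ± 0.21), fell with control siRNA by 0.43 and 0.56 and changed by 0.29 ± 0.11 and 0.35 ± 0.15 with siβ-catenin. The orphan receptor gene GPR162 (1.09 ± 0.27) and DLGAP1-AS2 (1.13 ± 0.28), an antisense RNA whose reads cannot be assigned to a strand here, complete the 12 positive interactions of lowest adjusted p among genes with a mean of at least 100. Of these 12, ATOSB was called in 10 of 12 fits that left out 1 library, RGS3 and DLGAP1-AS2 in 7, GPR162 in 6 and the other 8 in all. edgeR's quasi-likelihood test called none of them, with adjusted p from 0.0842 for TFPI and 0.0724 for DIO2 upwards.

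**Figure D3:**
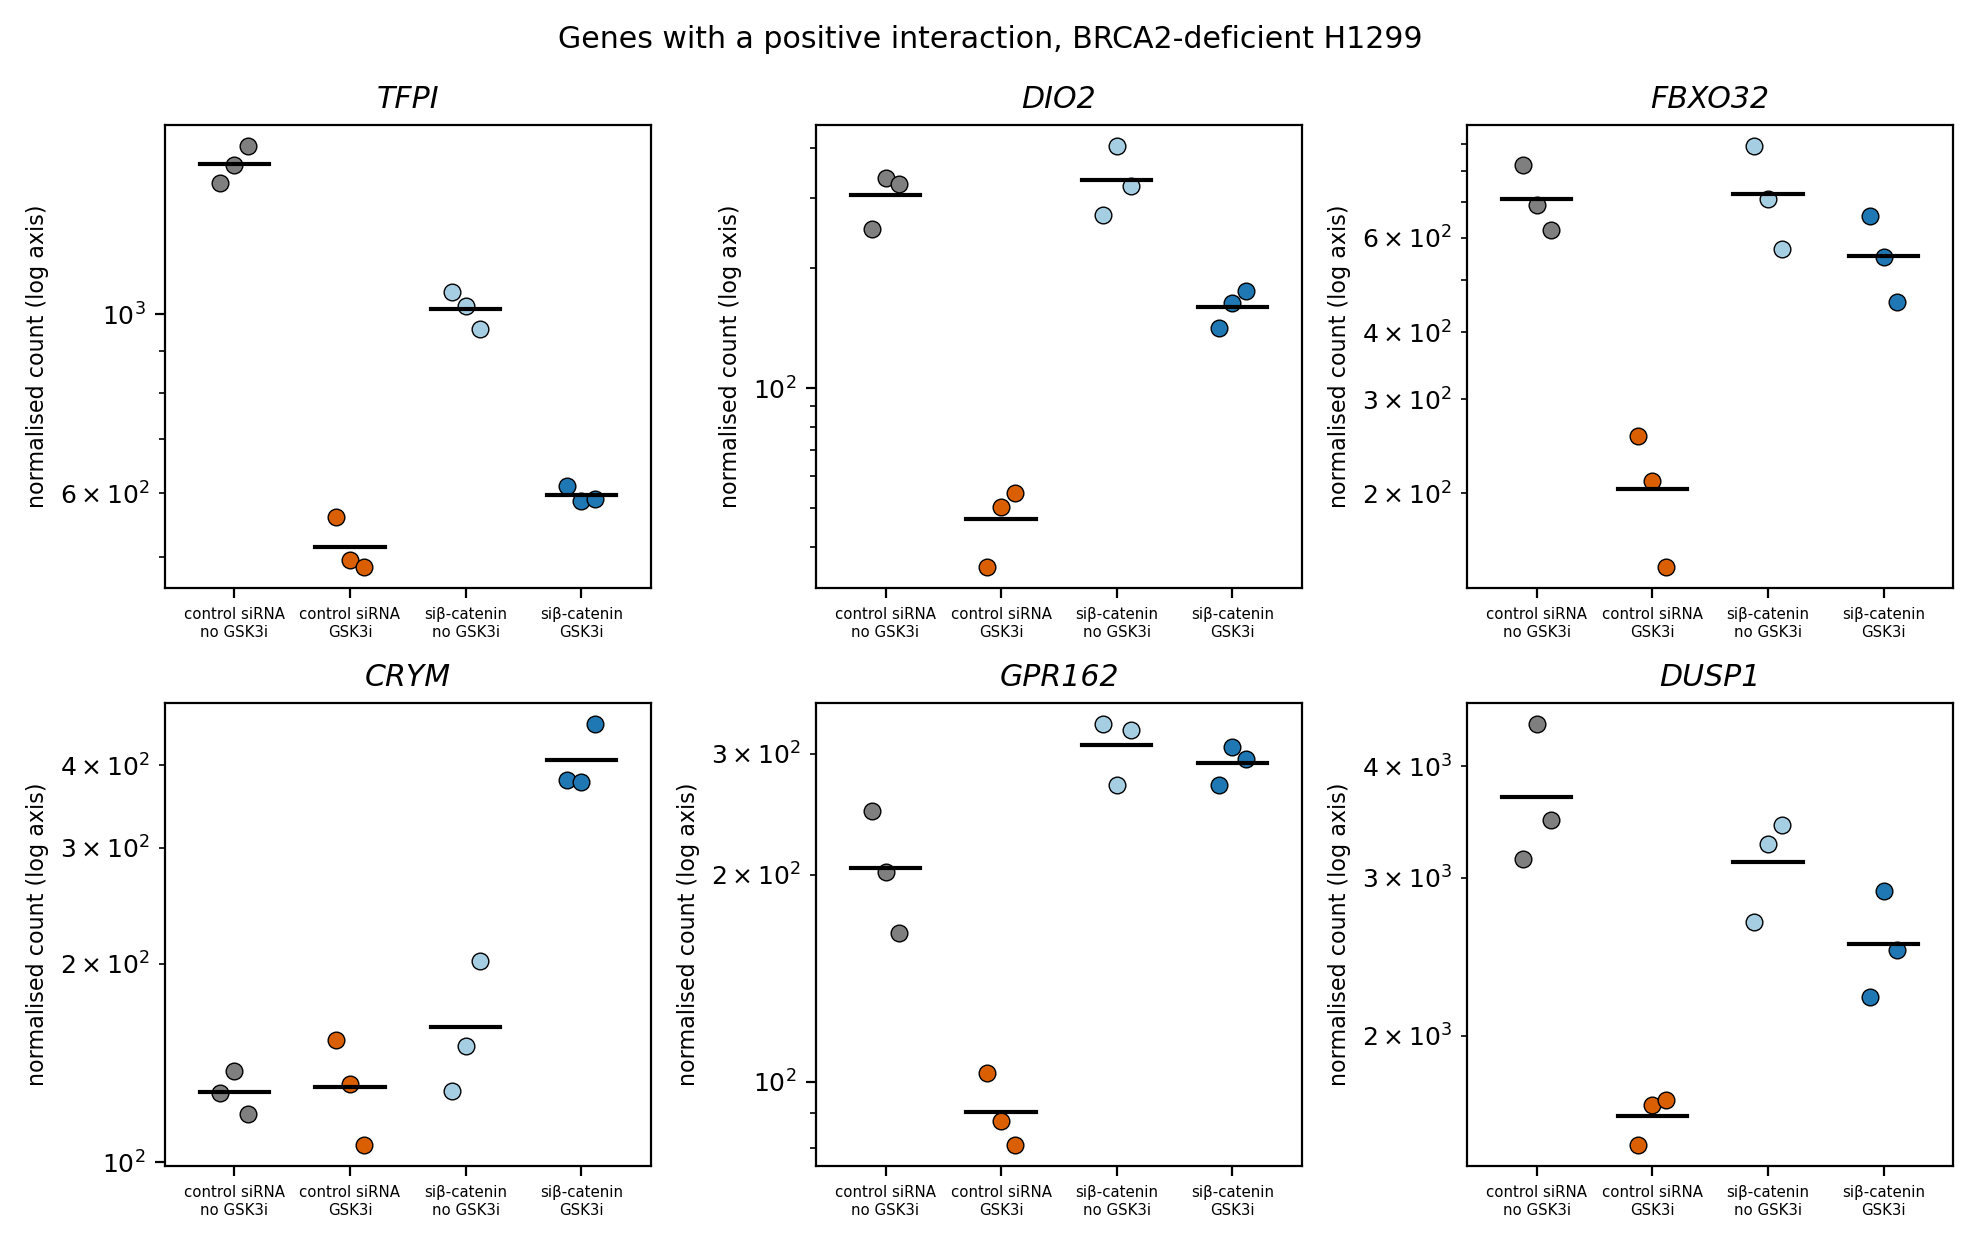
Normalised counts (log axis) of 6 genes with a positive interaction in each of the 12 libraries, by group, with the mean of 3 libraries as a bar. GSK3i with control siRNA gives the lowest level of TFPI, DIO2, FBXO32, GPR162 and DUSP1, and both together give the highest of CRYM, at 378 to 463.

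Other lists held few calls, and each is read beside the share of all genes called, 0.337% and 0.149%. Of 24 genes of ribosome biogenesis, many of them MYC targets, BOP1 (-0.80 ± 0.22, adjusted p = 0.0489) and MYBBP1A (-0.72 ± 0.15, 0.00102) were called, and 22 of 24 had a negative value. The list rose under both siRNAs, 22 genes with control siRNA and 18 with siβ-catenin, but its median fell from 0.99 to 0.58. MYBBP1A, a nucleolar MYB-binding protein, went from 1991, 1756 and 2073 to 4523, 4627 and 4550.5 with control siRNA and from 2144, 1988 and 2401 to 3119, 3211 and 3007 with siβ-catenin. With the block, RRS1 (-0.85, adjusted p = 1.28e-05) and RRP12 (-0.63, 0.00334) were called as well.

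Of 23 genes of the integrated stress response, the ATF4 programme of amino acid supply, SLC7A5 was called. This amino acid transporter rose from 1509, 1428 and 1720.2 to 6088, 4839 and 5271 with control siRNA and from 2237, 1891 and 3451 to 4003, 3694 and 3982 with siβ-catenin, with an interaction of -1.17 ± 0.29 (adjusted p = 0.0104). The depletion raised its starting level (0.70 ± 0.20, adjusted p = 0.0242 by DESeq2), and under GSK3i the effect of the depletion, -0.47 ± 0.20, was not called (0.134). The call of the interaction was lost without control siRNA replicate 2 (adjusted p = 0.0978) or GSK3i with siβ-catenin replicate 2 (0.0792). With control siRNA 16 genes of the list rose, and with siβ-catenin 8, at medians of 0.74 and 0.38. The block added calls in 4 further genes. Negative were the secreted glycoprotein gene STC2 (-1.41, adjusted p = 8.59e-12, against 0.223 without the block), the cystine transporter SLC7A11 (-0.84, 0.0234) and the glutathione-degrading enzyme CHAC1 (-0.84, 0.0488), and DDIT4, an inhibitor of mTORC1 signalling, was positive (0.74, 0.0436).

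FOXO-type quiescence genes were the list that GSK3i lowered most. Of 23 members, 19 fell with control siRNA and 18 with siβ-catenin, and the median response was -1.86 and -1.42. The translation inhibitor PDCD4 fell from 1692, 2002 and 1631 to 115, 121 and 123 with control siRNA and from 1651, 1858 and 1356 to 152, 164 and 149 with siβ-catenin, and its interaction of 0.50 ± 0.23 was not called (adjusted p = 0.704). FBXO32 was the 1 member called, and the block added 2, among them YPEL5 (0.55, adjusted p = 0.0112). Of the 14 glycogen genes PPP1R3C, which targets protein phosphatase 1 to glycogen, was called (1.01 ± 0.28, adjusted p = 0.0481) and the median response of the list was -0.01 and 0.01.

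Single calls came from the stress-induced MAPK phosphatase DUSP1 (0.88 ± 0.24, adjusted p = 0.0383) of 24 AP-1 and MAPK feedback genes and the chemokine CXCL2 (1.03 ± 0.28, 0.0481) of 14 NF-κB targets, both of which fell less with siβ-catenin. The NOTCH feedback inhibitor NRARP, of 17 NOTCH genes, rose from 28.8, 26 and 17.2 to 125, 122 and 59.3 with control siRNA (2.09 ± 0.37) and responded by 0.10 ± 0.36 with siβ-catenin (adjusted p of the interaction 0.0265). PPP1R3C, DUSP1, CXCL2 and NRARP were each called in 3 of the 12 fits that left out 1 library. Neither DESeq2 nor edgeR called any of 22 cholesterol and fatty acid, 28 lysosome and autophagy, 24 extracellular matrix, 22 YAP/TEAD, 18 interferon-stimulated, 19 NRF2 or 13 mtDNA-encoded genes. Below an unadjusted p of 0.05 were 0, 2, 7, 5, 0, 1 and 0 of them, beside 994 of all 18117 genes. Of the 7 matrix genes 3 were negative and 4 positive, and of the 5 YAP/TEAD genes 1 and 4. With the block, among others, the lysosomal sialidase NEU1 (0.57, adjusted p = 0.00672), the receptor kinase AXL (0.64, 0.00221) and haem oxygenase HMOX1 (0.69, 0.0173) had a positive interaction, and TGFBI (-0.73, 0.00848) and FN1 (-0.87, 0.0308), of the matrix list, a negative one.

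**Figure D4:**
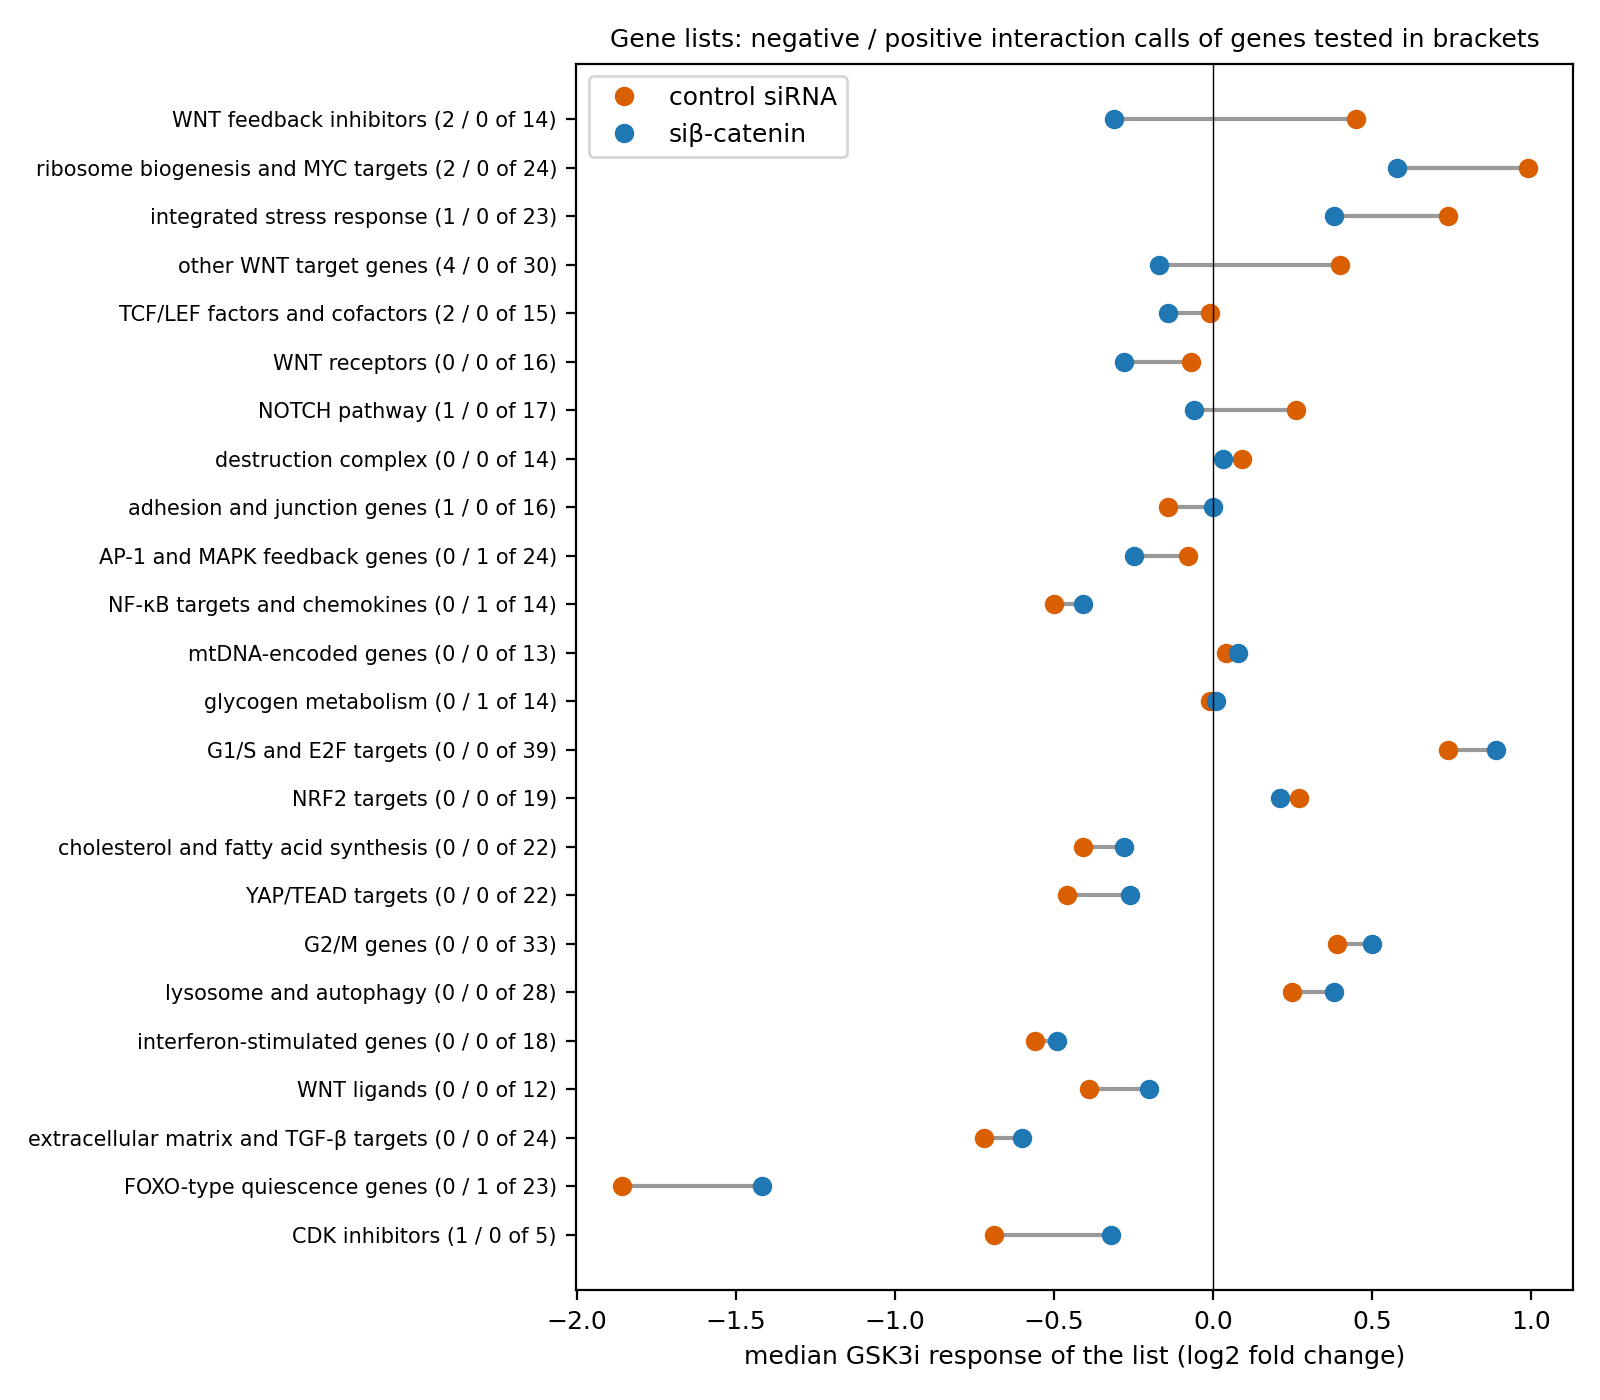
Median GSK3i response (log2 fold change) of 24 gene lists with control siRNA and with siβ-catenin, with the number of genes called with a negative and a positive interaction and the number tested in brackets. WNT feedback inhibitors, at 0.45 and -0.31, stand at the top of the order by median interaction, and G1/S and E2F targets have 0.74 and 0.89.

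Genes of the G1/S transition rose with GSK3i whether or not β-catenin was depleted. Of 39 G1/S and E2F targets, 25 rose with control siRNA and 27 with siβ-catenin, and none fell. DESeq2 called none in the interaction, with or without the block, and nor did edgeR. Only 1 gene was below an unadjusted p of 0.05, beside 994 of all 18117 genes. CDC6, a loading factor of the replicative helicase, had 868, 1003 and 1054 normalised counts with control siRNA and 2244, 2014 and 1844 with GSK3i, and 619, 529 and 644 with siβ-catenin and 1592, 1521 and 1379.9 with both. Its levels were lower with siβ-catenin at either condition without overlap, and its increases were 2.08-fold and 2.51-fold (interaction 0.27 ± 0.19, 95% interval -0.11 to 0.64). ORC1, of the origin recognition complex, and MCM4, of the helicase, rose by 1.25 ± 0.17 and 0.92 ± 0.14 with control siRNA and by 1.39 ± 0.17 and 0.90 ± 0.14 with siβ-catenin. CCNE1, which encodes cyclin E, did not change detectably with GSK3i under either siRNA (0.03 ± 0.19 and 0.18 ± 0.19), and its interaction was 0.15 ± 0.26. Depletion of β-catenin itself lowered CCNE1 (-0.70 without GSK3i and -0.55 with it) and ORC1 (-0.73 and -0.60), all called. For MCM4 its effects of -0.45 and -0.47 were not called. Of 33 G2/M genes neither tool called any, 1 was below an unadjusted p of 0.05 and 28 had a positive value, with CDC25C at 0.63 ± 0.30 (adjusted p = 0.717).

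CDKN1A, which encodes the CDK inhibitor p21, had 1530.0, 1113 and 1335 normalised counts with control siRNA and 1049.6, 638 and 772 with GSK3i, a 1.62-fold decrease. With siβ-catenin it had 1119, 1114 and 1018, and with both 1361, 1016 and 1009.8, and the response was 0.06 ± 0.20 (adjusted p = 0.874). The GSK3i libraries overlapped with those given both. The interaction, 0.75 ± 0.28, was not called (adjusted p = 0.375) but was called with the replicate block (0.75, 0.00518), and within replicate numbers 1, 2 and 3 it was 0.83, 0.67 and 0.78. Without GSK3i replicate 1 it was called without the block too (0.97, adjusted p = 0.0272). Of 5 CDK inhibitor genes tested, 4 had a positive interaction and 1 a negative one, and the median was 0.7, beside -0.003 over all genes. CDKN2C (0.70 ± 0.26, adjusted p = 0.36) and CDKN2D (0.77 ± 0.29, 0.355) were positive and not called, nor were they with the block (0.0509 and 0.081). In contrast, CDKN2B, which encodes the CDK inhibitor p15, did not respond detectably with control siRNA (0.06 ± 0.14). It fell from 2021, 1936 and 1776 to 1179.7, 1359 and 1023 with siβ-catenin. Its interaction was called (-0.75 ± 0.20, adjusted p = 0.0387), in 2 of 12 fits that left out 1 library. An antisense gene overlaps CDKN2B, and its reads cannot be told apart here.

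MYC, a transcription factor and WNT target, went from 4899, 4982 and 5462 to 4746, 3675 and 4466 with control siRNA and from 4833, 3887 and 5232 to 2728, 2296 and 2613 with siβ-catenin, where the fall was 1.83-fold. Its interaction of -0.62 ± 0.21 was not called (adjusted p = 0.225) but was with the block (-0.60, 0.00358) and without siβ-catenin replicate 2 (-0.73, adjusted p = 0.0428). CCND1, which encodes cyclin D1, responded by 0.43 ± 0.19 and -0.16 ± 0.19, with an interaction of -0.59 ± 0.27 that was not called with the block (adjusted p = 0.159) or without it (0.671).

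Many GSK3i responses were seen under both siRNAs. Of the genes called, 1092 rose and 1634 fell under both. In 159 and 106 of these the 95% interval of the interaction lay within 0.5 of 0, so that a difference beyond the criterion was not compatible with the interval. The median SE of the interaction was 0.319 over all genes and 0.261 over those with a mean of at least 100, so most genes could not meet this. Among those that did, GNPDA1, an enzyme of amino sugar breakdown, rose from 4045, 3886 and 3412 to 9034, 8003 and 7123 with control siRNA and from 4643, 4416 and 4747 to 11614, 10553 and 10495 with siβ-catenin (interaction 0.15 ± 0.17, 95% interval -0.18 to 0.48). C4orf46, the haem A synthesis enzyme COX10, the ribosome assembly factor BRIX1, the m6A methyltransferase METTL3 and THUMPD2 also rose by between 0.96 and 1.10 with control siRNA, with interactions from -0.08 to 0.05.

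ULK1, the kinase that starts autophagy, headed those genes lowered under both siRNAs whose interval of the interaction met the limit given above. It fell from 2410.0, 1829 and 2265 to 635, 589.6 and 591 with control siRNA and from 2578, 2228 and 2496 to 650.4, 694 and 675 with siβ-catenin, by 1.84 and 1.85 on the log2 scale (interaction -0.01 ± 0.18, 95% interval -0.37 to 0.35). ZSWIM4 (-0.04 ± 0.21), the ESCRT gene CHMP1B (0.06 ± 0.15), the mitophagy kinase gene PINK1 (0.11 ± 0.19) and the homeobox gene NKX3-2 (0.06 ± 0.21) followed. FBLIM1, a filamin-binding protein of cell-matrix contacts, fell by 1.14 under both siRNAs while siβ-catenin raised it by 1.13 at either condition.

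Sets of genes chosen in other libraries gave a measure of the whole response. In the 5 BRCA2-proficient libraries with control siRNA, none of which is among the 12, 1864 of the genes tested were raised by GSK3i and 2296 lowered. In BRCA2-deficient cells the raised genes had a median response of 0.705 with control siRNA and 0.505 with siβ-catenin, which left 71.6%. The response was lower with siβ-catenin in 1507 of them (80.8%), and 48 were called with a negative interaction, or 140 with the block. The lowered genes had medians of -0.83 and -0.66, which left 79.5%, and 20 were called with a positive interaction and 1 with a negative one. Genes share libraries and are not replicates, so these medians carry no test. Without 1 library, the median interaction of the raised genes lay between -0.268 and -0.111, and the share with a smaller response between 64.6% and 89.4%, with the smallest shift without GSK3i replicate 1. For the lowered genes the median lay between 0.128 and 0.218.

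The share left differed with the size of the response in BRCA2-proficient cells. Among raised genes, it was 72.9% where that response was 0.5 to 1 (1471 genes), 67.8% at 1 to 2 (358 genes) and 40.4% above 2 (35 genes). In the last class, 10 of 35 genes were called (28.6%), against 12 of 1471 (0.816%) in the first. A call needs a difference beyond 0.5, which is harder to reach from a small response, so these shares of calls depend on the class itself. Among lowered genes the 3 classes kept 83.9%, 75.7% and 76.8%. In proportion, leaving out 1 library moved the medians of the lowest classes most. The median interaction of genes raised by 0.5 to 1, -0.159, lay between -0.235 and -0.07 without 1 library (-0.07 without GSK3i replicate 1). That of genes lowered by 0.5 to 1, 0.101, lay between 0.061 and 0.141 (0.061 without siβ-catenin replicate 3). In the classes above 2 it lay between -1.524 and -1.028 for raised genes and between 0.39 and 0.57 for lowered ones. Of the 88 genes called in the interaction, 48 of the 61 negative ones were in the raised set and 20 of the 27 positive ones in the lowered set.

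**Figure D5:**
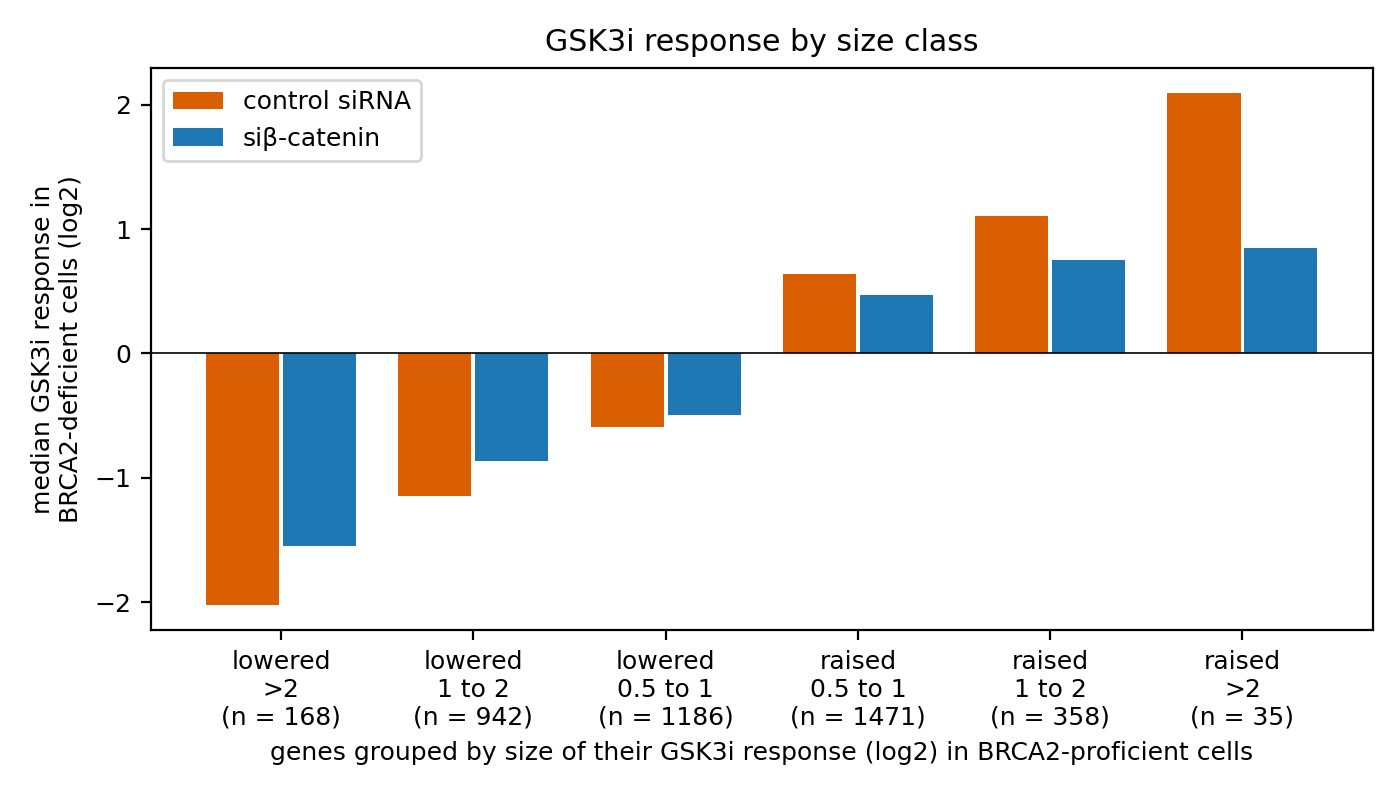
Median GSK3i response in BRCA2-deficient cells (log2 fold change) with control siRNA and with siβ-catenin, for genes grouped by the direction and size of their response in BRCA2-proficient cells with control siRNA. Bars are medians over genes and have no error: the raised genes above 2 go from 2.09 to 0.847, those lowered by more than 2 from -2.02 to -1.55.

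Depletion of β-catenin also changed some genes both with and without GSK3i. In the same direction with and without GSK3i, and with no interaction called, 114 genes were raised and 80 lowered. COL1A1, a collagen chain, had 130.0, 107 and 144 and 85.8, 82.9 and 101 with control siRNA, without and with GSK3i, and 327, 237 and 514 and 249.8, 306 and 374 with siβ-catenin, so that all 6 depleted libraries lay above the other 6. FGFR3, a growth factor receptor, fell with GSK3i by 1.55 and 1.54 and was raised by siβ-catenin by 1.46 and 1.47 (interaction 0.01 ± 0.43). The long non-coding RNA LINC02154 and the interferon-induced GTPase gene GBP1 were raised, by 2.29 and 1.37 without GSK3i. Beside CTNNB1, the lowered genes of largest effect were MLLT11 (-1.39 and -1.27), MPP4 (-1.17 and -1.56) and the ETS factor ETV1 (-1.12 without GSK3i).

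The same interaction in BRCA2-proficient cells rested on 10 libraries, of which 2 went against their labels. The library labelled siβ-catenin replicate 2 had 35.3 normalised counts of YPEL2 and 291.2 of PDCD4, near the levels with GSK3i, and replicate 2 of the libraries labelled GSK3i with siβ-catenin had 304.5 and 2001, near the levels without it. With all 10 libraries, 1305 of 17093 genes were called (7.63%), and without the 2 libraries 592 of 16825 (3.52%), so the direction of single genes in those cells is not given here. The difference between the backgrounds was tested as a 3-way term over all 22 libraries. DESeq2 called 0 of 18409 genes (0%), with 1747 below an unadjusted p of 0.05, edgeR's quasi-likelihood test called 0, DESeq2 with the block 16, and DESeq2 without the 2 libraries 4. The lowest adjusted p among genes with a mean of at least 100 were those of the NF-κB cofactor BCL3 and the pseudogene UQCRFS1P1, both 0.0759, and of SP5 (0.0838), each more negative in BRCA2-deficient cells. In the other direction they were those of CDC6 (0.251), the end-resection factor RBBP8 (0.277) and ELMOD1 (0.293). Without the 2 libraries the value for SP5 was -1.64 (adjusted p = 0.534), for BCL3 -1.33 (0.021) and for UQCRFS1P1 -4.42 (0.00792).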

How the data were processed

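Poly(A)-enriched, strand-specific RNA-seq libraries were sequenced as paired ends. The deposited table holds raw read counts per Ensembl gene. To make the counts, the authors aligned reads to GRCh37 with HISAT2 2.0.4, removed duplicates with Picard 1.9.2 and summarised uniquely mapping reads with featureCounts 1.5.0, with SAMtools 1.4 also named. The versions are those of the submitters' processing notes, and the study's own software list gives other ones, so which were used is uncertain. Removal of duplicates by position lowers the highest counts most. The strand setting and the Ensembl release are not given in the sources used here, so overlapping genes on opposite strands are uncertain, as are genes with near-identical copies. Symbols were matched for 29629 of 37908 identifiers, and the remainder held 1.02% of counts.

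The 12 libraries of BRCA2-deficient cells were fitted with DESeq2 1.42.0 in R 4.3.3 (siRNA, GSK3i and their interaction, Wald test, median-of-ratios size factors, no shrinkage) on the 18117 genes that reached 10 counts in 3 or more libraries. Adjusted p was not given by DESeq2 for 3516 of them. Alternatives were edgeR 4.0.16 quasi-likelihood, TMM scaling, other low-count filters, a Wald test against a difference of 0.5, a model over all 22 libraries and leaving out each library. Fits were also run on simulated counts drawn without a replicate effect, unlike these libraries, and no result given here rests on that run. The replicate numbers were taken to pair the samples, since the deviations from group means of all 18 same-number pairs of libraries correlated above 0.1 (0.122 to 0.692, median 0.38). Each of the 12 libraries correlated best with its own number. Deviations add up to 0 within a group, so the negative median of other pairs (-0.19) follows from these values and is no further evidence. The block is given beside results that it changes.

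The libraries, the gene lists and the rule for genes to name were chosen with earlier results of these data known. The rule took the genes that the study names from this assay together with BRCA2, CTNNB1, GSK3A and GSK3B, and in each direction the 12 called genes of lowest adjusted p with a mean of at least 100. It added called members of the WNT lists, up to 4 members of lowest p of each other list, the 6 highest and 6 lowest retained responses, the 4 highest and 4 lowest changes with siβ-catenin alone, and 3 genes in each direction of the 3-way term. Genes outside the rule, chosen after their values were known, are WNT7B, AXIN1, ZNRF3, NOTUM, PLAUR, SLC7A11, CHAC1, DDIT4, TCF7L1, TCF7L2, BCL9, TLE3, PLPP3 and TRIB2, and those whose promoter held a motif match.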

Additional observations from a re-analysis of the deposited data

How the results depend on the processing

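The interaction called 88 genes, 61 negative and 27 positive. TMM scaling gave 87, no low-count filter 83 and the low-count filter worded by the study 86. The replicate block, for which the numbers were found to pair the samples, gave 335 (218 negative, 117 positive). edgeR's quasi-likelihood test gave 11 (11 and 0), the Wald test against 0.5 gave 6 (6 and 0), and 1 model over all 22 libraries gave 52, of which 10 were positive. The same model over 20 libraries, without the 2 that went against their labels and chosen after seeing the data, gave 143 (102 and 41). Without 1 library the count ran from 47 to 110, from 37 to 79 negative and from 10 to 39 positive. Called with a negative interaction among genes raised in BRCA2-proficient cells were 48, with 140 in the block, 9 by edgeR, 3 against 0.5, 78 over 20 libraries and 30 to 60 without 1 library. Called with a positive one among the lowered genes were 20, with 76 in the block, 0 by edgeR, 0 against 0.5, 7 over 22 libraries, 33 over 20 and 8 to 28 without 1 library. Of the TCF/LEF, feedback and other target genes 8 were called, with 14 in the block, 5 by edgeR, 4 against 0.5 and 5 to 11 without 1 library. In BRCA2-proficient cells the count of 1305 became 4 by edgeR, 26 against 0.5, 2149 over 22 libraries, 592 without the 2 libraries and 102 to 2251 without 1. The 3-way count of 0 became 16 with the block, 4 without the 2 libraries and 0 to 346 without 1. No named gene that was called, with these or the alternative settings, turned direction, whereas values near 0 of genes not called, such as BRCA2, CTNNB1, GSK3A and GSK3B, changed sign when single libraries were left out. The block moved 13 named genes past the criteria and none below, and edgeR left 25 fewer called. Replicates differed by more than counting error, no alternative varied the depth, and the cause of these shifts was not tested.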
